A study of Mus musculus with 2 samples.

Results

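The MHC class II pathway was followed in liver immune cells through 10 genes chosen by name. These were the chain genes H2-Aa, H2-Ab1, H2-Eb1 and H2-Eb2, the invariant chain gene Cd74, the peptide editing genes H2-DMa, H2-DMb1, H2-DMb2 and H2-Ob, and the transactivator gene Ciita. All 10 were present among the 13528 genes of the filtered count table. Each was summed over the cells of the 14 cell type names and the 30 clusters deposited with the data.

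Liver CD45+ cells were captured on BD Rhapsody, which counts messenger RNA molecules cell by cell with unique molecular identifiers (UMIs). The dnTGFβRII (TG) mice carried a dominant-negative TGF-β receptor II transgene driven by the CD4 promoter, so that the transgene acts in T cells, and they serve as a model of autoimmune biliary disease. Their cells were captured together with those of IFN-γ ARE-Del-/- mice. Wild type (WT) cells were captured together with those of P40-/-IL-2Ra-/- mice, and sample tags separated the genotypes within each pool. All mice were C57BL/6 and 10 weeks old by the labels, and the number of mice behind each genotype was not stated. The methods of the study state a younger age for the TG and WT mice. Named cells numbered 4647 in TG, with 18498477 UMIs and a median of 3298 per cell, and 7282 in WT, with 22216379 UMIs and a median of 2653.5 per cell. Each genotype was 1 capture library, so genotype and library cannot be told apart, no test between genotypes was possible, and the intervals below cover counting error only. The TG and WT cells shared 36 cell barcodes. None of the 49 antibodies was directed against a class II molecule, so all values are transcript levels.

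Class II molecules present peptides from the endocytic route to CD4+ T cells. The alpha and beta chains assemble around the invariant chain, whose remnant is exchanged for peptide with the help of H2-DM, and H2-O restrains H2-DM. Ciita, the class II transactivator, does not bind DNA itself and is recruited by factors on the X and Y boxes of class II promoters. In mice, B cells, dendritic cells and activated macrophages hold the pathway, while resting T and NK cells do not.

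Of the 10 genes, 8 lie within the class II region of chromosome 17, between H2-DMa at chr17:34119541-34139101 on the plus strand and H2-Eb2 at chr17:34325665-34341412 on the plus strand in mm10 (GRCm38). Ciita and Cd74 lie on other chromosomes. Promoter sequences from RefSeq on GRCm38.p6 were matched for 7 of the 10 genes. The windows below overlap no annotated exon, and are shown because 5 of these genes share an arrangement of a pair of boxes. Capitals mark the X core, AACNNATG, and the Y core, GATTGG.

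H2-DMb2, chr17:34145120-34145169, plus strand: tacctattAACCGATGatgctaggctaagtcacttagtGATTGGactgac

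H2-Ob, chr17:34238812-34238858, plus strand: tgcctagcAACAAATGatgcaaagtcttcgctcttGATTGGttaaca

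H2-Eb1, chr17:34305770-34305818, plus strand: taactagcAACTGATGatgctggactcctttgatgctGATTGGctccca

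H2-Eb2, chr17:34325537-34325585, plus strand: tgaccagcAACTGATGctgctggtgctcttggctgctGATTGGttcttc

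H2-Aa, chr17:34287861-34287910, minus strand: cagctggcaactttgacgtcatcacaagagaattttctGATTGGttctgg

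The Y core was found in the promoters of all 7 matched genes, for H2-DMa at 1 of its 2 listed starts. An X core followed 19 to 22 bases later by a Y core was found in 5 of them, H2-Eb1, H2-Eb2, H2-DMb1, H2-DMb2 and H2-Ob. Over all 32851 promoters of 300 bases, searched on both strands, 16.1% held the Y core, 8.86% held the X core and 0.0183% held this arrangement. The 6 promoters with it belonged to those 5 genes and BC051142. The spacing was taken from the members themselves, so this share is a description and their place among the 6 was built in. The H2-Aa window held a Y core only, and no match says only that these letters are not in the window.

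The summed level of the classical chains H2-Aa, H2-Ab1 and H2-Eb1, called the chain sum, separated the cell types into a high and a low set in each genotype. Levels are given in CPM, the UMIs of a gene per 1000000 UMIs of all genes in the same cells. In TG cells the chain sum was 15811 CPM in cells named macrophage, 14823 in mature B cells, 9607 in immature B cells, 7582 in plasmacytoid dendritic cells (pDC) and 5540 in cells named other. In WT cells it was 18117 CPM in cells named macrophage, 11327 in mature B cells, 8360 in immature B cells, 8041 in other cells and 5003 in pDC. Immature B and other cells of WT did not differ beyond their counting intervals, while the remaining neighbours among these 5 did in each genotype. The order depended on the cells and their weights, and with cells weighted equally TG mature B cells were at 15173 CPM and TG cells named macrophage at 13220 CPM. The filter for cells of another lineage counted those named other as myeloid. Of the 38 TG cells named other, 33 thus left for holding B or T lineage genes. The name then rose from the lowest of the 5 to 32893 CPM. Of the 38, 32 belonged to cluster 26, described below, where the chain sum was 2044 CPM, and 6 to cluster 28, at 24809 CPM. The other 9 cell types stayed at or below 834 CPM in TG against 327 CPM in WT, and most neighbours in their order overlapped.

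**Figure D1:**
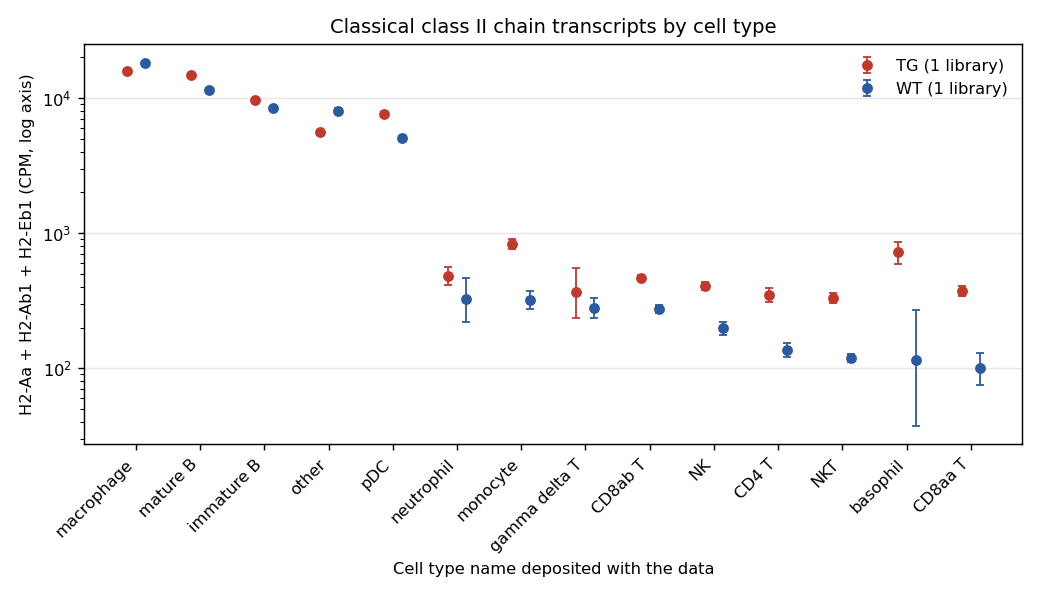
Chain sum in CPM (log axis) for each of the 14 deposited cell type names, with TG in red, WT in blue and bars for the 95% Poisson interval. The 5 names on the left lie between 5003 and 18117 CPM and the 9 on the right between 100 and 834 CPM.

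B cells held most of the class II transcript counted in each genotype. Mature and immature B cells together held 76.1% of the chain UMIs of TG (95% interval 75.8 to 76.4%) while making up 27.1% of cells, and 58.6% of those of WT (58.2 to 58.9%) from 23.3% of cells. With the myeloid classes and pDC added, the share was 91.7% in TG and 95.2% in WT. Mature B cells alone held 62.3% of Cd74 UMIs in TG and 54.6% in WT. For H2-Eb2, a less used beta chain gene, the same cells held 85.6% in TG and 78.2% in WT.

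The names macrophage and other were checked against marker genes, because class II levels differed widely inside them. Of the 3 clusters named macrophage, cluster 15 held 89 TG and 158 WT cells with Itgax at 364 CPM in TG against 343 CPM in WT. Its Cd209a level was 326 CPM in TG against 578 CPM in WT. Cluster 22, with 20 TG and 80 WT cells, held the conventional dendritic cell genes Xcr1, at 448 CPM in TG against 512 CPM in WT, and Clec9a, at 218 CPM in TG against 443 CPM in WT. Macrophage genes were led by cluster 27, with C1qa at 2046 CPM and Adgre1 at 1017 CPM, and this cluster held 23 WT cells and 0 TG cells. C1qa was at 0 UMIs in cluster 22 and in the TG cells of cluster 15. The markers thus go against the name macrophage for clusters 15 and 22, which are called by their numbers here.

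Cells carrying macrophage markers held little class II transcript beside clusters 15 and 22. In the 23 WT cells of cluster 27 the chain sum was 328 CPM (244 to 431 CPM), and 43.5% of the cells had no chain UMI. The chain sum of all WT T and NK cells was lower, at 169 CPM, and 77.7% of them had no chain UMI. In cluster 22 it was 26609 CPM in TG against 29113 CPM in WT, and every cell had at least 1 chain UMI. Cluster 15 lay between, at 11666 CPM in TG against 13049 CPM in WT. Cluster 22 thus exceeded cluster 15 by 1.19 on the log2 scale in TG (1.13 to 1.25) and by 1.16 in WT (1.12 to 1.195).

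The cells named other combined clusters at opposite ends of the range. Cluster 28, with 6 TG and 15 WT cells, was led by Ccr7, at 1840 CPM in TG against 2406 CPM in WT, and by Fscn1, at 3401 CPM in TG against 4670 CPM in WT. Its chain sum was 24809 CPM in TG against 17217 CPM in WT. Cluster 26, with 32 TG and 14 WT cells, held Jchain, the joining chain gene of secreted antibody, at 28850 CPM in TG against 24766 CPM in WT. Its chain sum was 2044 CPM in TG against 1035 CPM in WT, with log2 differences from cluster 1 of -2.90 and -3.62.

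The mature B name was also a mixture. Cluster 1 held 1028 of the 1068 TG and 1329 of the 1494 WT cells, while cluster 17 held 29 TG and 155 WT cells with genes of B and T lineages together. In cluster 17 the T cell receptor gene Cd3e was at 728 CPM in TG against 609 CPM in WT, beside Cd79a, the B cell receptor gene, at 2456 and 1954 CPM. Its chain sum was 6898 CPM in TG against 5677 CPM in WT, while cluster 1 had 15236 and 12752 CPM. Cluster 17 made up a larger part of WT than of TG mature B cells, and mature B values are therefore given also for cluster 1 alone.

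The genes of the pathway did not keep the same proportions across presenting cells. H2-DMb2 and H2-Ob were high in B cells, and H2-Eb2 in mature B cells, and all were low in clusters 15, 22 and 14, the last being the pDC, whereas the classical chains, H2-DMa, H2-DMb1 and Ciita of cluster 22 were at or above the level of cluster 1. H2-DMb2, a beta chain of H2-DM, was at 1223 CPM in cluster 1 of TG and 1202 CPM in that of WT. It was at 76.9 and 160 CPM in cluster 15 and at 58.9 and 156 CPM in cluster 22, with log2 differences from cluster 1 between -4.38 and -2.91. H2-Ob, the beta chain of H2-O, was at 924 and 895 CPM in cluster 1. It was at 63.3 and 129 CPM in cluster 15 and at 130 and 296 CPM in cluster 22.

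The paralog H2-DMb1 followed another order. It was at 208 CPM in TG against 224 CPM in WT in cluster 1, and reached 389 and 471 CPM in cluster 22 and 330 and 255 CPM in cluster 15. The ratio of H2-DMb1 to H2-DMb2 UMIs was 0.171 in TG mature B cells (0.158 to 0.186) and 0.183 in those of WT (0.169 to 0.199). In cluster 15 it was 4.29 in TG (2.94 to 6.43) and 1.59 in WT (1.24 to 2.04), and in cluster 22 it was 6.60 in TG (3.37 to 14.4) and 3.02 in WT (2.37 to 3.89). In pDC it was 1.54 and 1.31. H2-DMb1 and H2-DMb2 are near-identical copies, and how reads shared by both were counted is not given in the sources used here, so the split between them is uncertain in absolute terms. Both promoters held the X and Y arrangement.

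H2-Eb2 was low outside mature B cells and cluster 28. In cluster 1 it was at 95.7 CPM in TG against 97.5 CPM in WT, and 23.5% and 16.9% of cells had a UMI. Cluster 22 held 0 UMIs in TG and 1 UMI in WT, cluster 15 held 8 and 7 UMIs, and pDC held 3 and 4 UMIs. Immature B cells were at 16.4 CPM in TG, no higher than the 18.1 CPM of TG cluster 15, and at 31.5 CPM in WT. Cluster 28 reached 223 CPM in TG against 224 CPM in WT, although from 12 and 19 UMIs. H2-Eb1, whose promoter holds the same arrangement, was in contrast high in cluster 22, at 5954 CPM in TG against 6495 CPM in WT.

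**Figure D2:**
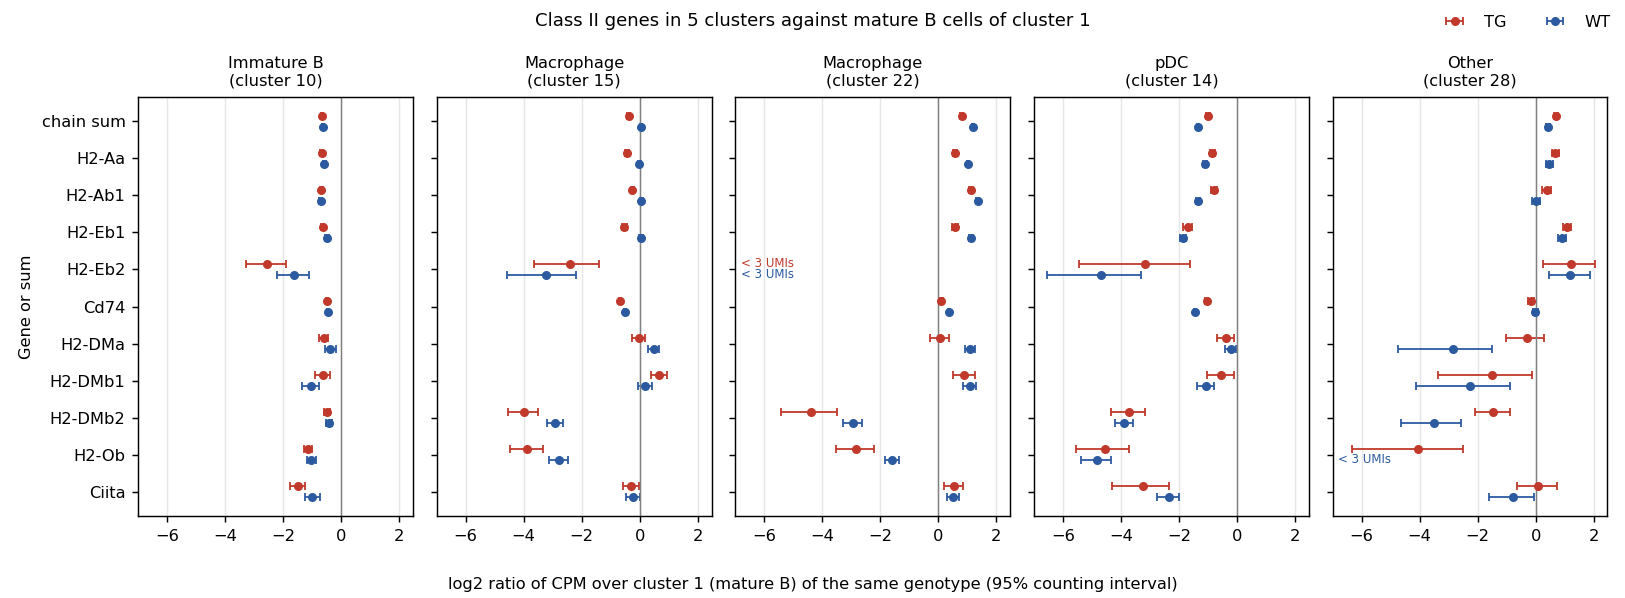
log2 ratio of CPM of each gene in clusters 10, 15, 22, 14 and 28 over cluster 1 (mature B) of the same genotype, with TG in red, WT in blue and bars for the 95% counting interval. H2-DMb2 and H2-Ob lie left of 0 in clusters 15, 22 and 14, between -4.83 and -1.60, while the chain sum of cluster 22 lies right of 0 by 0.80 in TG and 1.19 in WT.

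The proportion of H2-DM to H2-O transcripts also differed between these cells. H2-DMa UMIs per H2-Ob UMI were 0.520 in TG mature B cells and 0.383 in WT mature B cells. They were 7.46 (5.02 to 11.5) and 3.66 (2.88 to 4.69) in cluster 15, 3.86 and 2.46 in cluster 22, and 9.45 and 9.30 in pDC. H2-Ob was thus lower relative to H2-DMa in each of these 3 clusters than in mature B cells. The clusters were formed on transcripts of the same cells, so these differences are a description.

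Ciita was low in plasmacytoid dendritic cells, in TG also for their chain level. It was at 35.6 CPM in TG (10 UMIs) and 59.0 CPM in WT (62 UMIs), against 333 and 302 CPM in cluster 1. The chain sum per Ciita UMI was 213 in TG pDC (115 to 444) and 84.7 in WT pDC (66.0 to 111), compared with 45.9 and 42.3 in mature B cells, 43.0 and 50.1 in cluster 15 and 55.1 and 67.9 in cluster 22. The WT pDC did not stand apart from all other cells, as the ratio was 81.0 in TG immature B cells (68.7 to 96.0), 54.9 in WT immature B cells, and 70.3 in TG and 97.3 in WT in cluster 28. The H2-Eb1 to H2-Aa ratio was lower in pDC, at 0.388 in TG (0.342 to 0.440) and 0.392 in WT (0.362 to 0.425). It was between 0.647 and 0.707 in mature B cells and clusters 15 and 22 of each genotype.

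Immature B cells (cluster 10) held all members below the level of cluster 1. The chain sum differed by -0.67 in TG and -0.61 in WT on the log2 scale, and Cd74 by -0.48 and -0.47. Ciita differed by -1.49 in TG (-1.75 to -1.24) and -0.99 in WT (-1.24 to -0.74). H2-Eb2 differed by -2.55 in TG and -1.63 in WT, and H2-Ob by -1.15 and -1.02.

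In cluster 28 the chains were high, while H2-DMb1 was low in each genotype and H2-DMa in WT only. In WT the chain sum differed from cluster 22 by -0.76 on the log2 scale, whereas H2-DMa differed by -3.95 (-5.83 to -2.58) and H2-DMb1 by -3.32 (-5.21 to -1.95), each from 4 UMIs. In TG the difference was -0.10 for the chain sum, -0.36 (-1.12 to 0.34) for H2-DMa and -2.39 (-4.30 to -0.96) for H2-DMb1. H2-DMb2 was higher than in cluster 22 in TG, at 446 CPM against 58.9 CPM with a difference of 2.92 (1.80 to 4.15). This came from 24 UMIs in 6 cells against 10 UMIs in 20 cells. Of the 41 H2-DMb2 UMIs of all TG cells named other, 70.7% were in 3 cells, so a few cells may carry the difference. In WT the H2-DMb2 difference was -0.55 (-1.73 to 0.44). H2-Ob had 0 UMIs in these 15 WT cells and 3 in the 6 TG cells. H2-DMa was at 390 CPM in TG, from 21 UMIs, against 47.2 CPM in WT.

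Single cells of a cluster varied to different degrees. The chain sum of a cell had its 10th and 90th percentiles at 10329 and 20618 CPM in TG cluster 1 and at 7294 and 18524 CPM in WT cluster 1. In cluster 15 the 75th percentile was 13514 CPM in TG against 19965 CPM in WT, while 2.25% of TG cells and 31.0% of WT cells had no chain UMI. Among T and NK cells, 31.1% in TG and 77.7% in WT had none, a gap in the same direction. The medians of cluster 15, 5442 CPM in TG against 4273 CPM in WT, were below the summed levels.

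**Figure D3:**
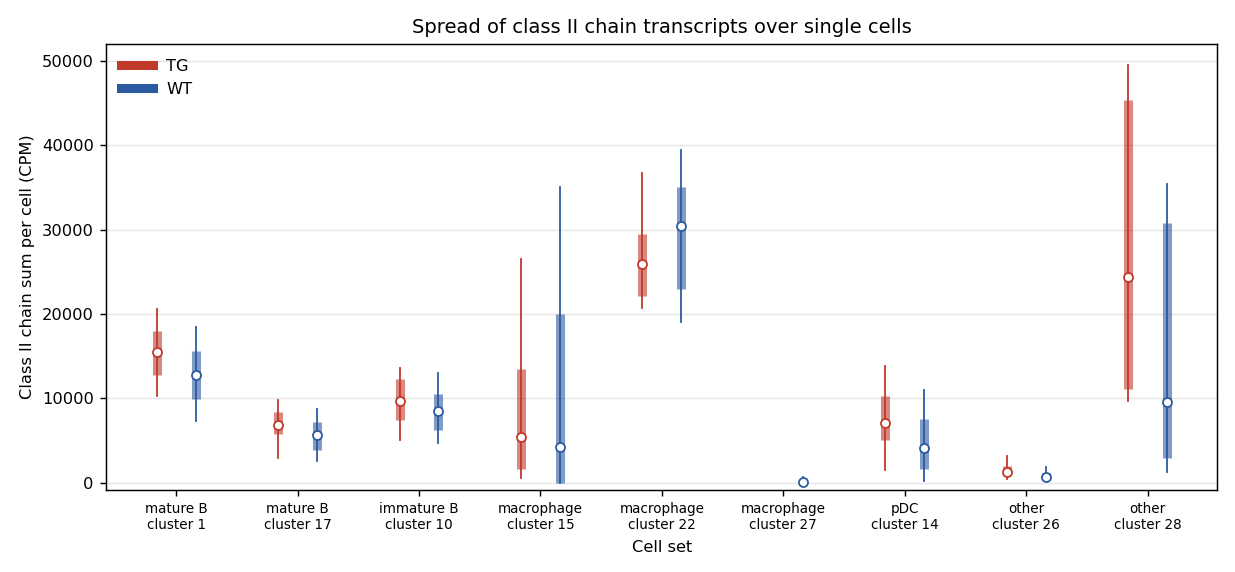
Chain sum per cell in CPM for 9 clusters, with TG in red and WT in blue, showing the median (circle), the 25th to 75th percentiles (thick bar) and the 10th to 90th percentiles (thin line). Cluster 1 is narrow around medians of 15492 CPM in TG against 12809 CPM in WT, whereas cluster 15 runs from near 0 up to 90th percentiles of 26568 and 35101 CPM.

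Chain levels of cluster 15 cells were highest with the most dendritic marker UMIs, but did not rise in steps in TG. Cells with at least 3 UMIs over 7 conventional dendritic cell markers, 35 in TG and 85 in WT, had chain sums of 15986 CPM in TG against 17574 CPM in WT. In cells with none of these UMIs, 18 in TG and 48 in WT, the chain sums were 6599 and 1968 CPM. Those with 1 or 2 of these UMIs, 36 in TG and 25 in WT, had 6484 CPM in TG (6067 to 6922), no higher than the TG cells with none, and 9003 CPM in WT. Raw UMIs made this split, and the groups differed in depth, with medians of 6542 UMIs per cell in TG and 5191 in WT for at least 3 dendritic UMIs, against 2912 and 2633.5 for none. The cells with none also differed in the monocyte marker list, summed to 5967 CPM in TG against 17719 CPM in WT. The share of cells with none of the dendritic UMIs was 20.2% in TG and 30.4% in WT.

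TG was then compared with WT within each cell type, which asks whether the pathway differed between the mouse with blocked TGF-β signalling in T cells and the wild type. In mature B cells all 10 members were above 0 on the log2 scale of TG over WT, with a median of 0.19 against -0.04 for the 9852 genes with at least 20 UMIs, of which 44.1% were above 0. Counting intervals lay above 0 for 8 of the 10, against 9.73% of all genes, and 1 member was at least 1.5-fold higher, H2-DMa, against 6.05%. None was 2-fold higher, against 1.94% of all genes. An interval excludes 0 at smaller ratios where UMIs are many, so interval counts here and below depend on UMI numbers. Cd74, with 49603 UMIs in TG and 51095 in WT, counted among the 8 at a log2 ratio of 0.05. In cluster 1 alone, 7 of the 10 members were above 0 with a median of 0.06, against 45.3% and a median of -0.04 for all genes there, 5 intervals lay above 0 against 9.88% of genes, and 1 lay below 0 against 13.6%.

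Classical chains were higher in TG mature B cells. The chain sum was 14823 CPM in TG against 11327 CPM in WT, a log2 ratio of 0.39 (0.37 to 0.41), and 0.26 (0.24 to 0.28) in cluster 1. All genes had a median absolute log2 ratio of 0.22 in mature B cells and 0.23 in cluster 1. H2-Eb1, the beta chain gene of H2-E, which is transcribed in C57BL/6 mice although their defective alpha chain gene prevents the H2-E protein, was at 3895 CPM in TG against 2620 CPM in WT, with log2 ratios of 0.57 in mature B cells and 0.43 in cluster 1. H2-Aa, the alpha chain of H2-A, was at 5539 CPM in TG against 4052 CPM in WT, with 0.45 and 0.33. Its partner H2-Ab1 differed less, at 5389 CPM in TG against 4655 CPM in WT, with 0.21 and 0.08. The difference was also seen in the middle of the cells, as the median cell of cluster 1 had 15492 CPM in TG against 12809 CPM in WT.

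Cd74, the invariant chain, differed little in mature B cells, and its direction depended on the cells used. It was at 14765 CPM in TG against 14221 CPM in WT, a log2 ratio of 0.05 (0.04 to 0.07), but in cluster 1 it was at 15187 and 16060 CPM, a log2 ratio of -0.08 (-0.10 to -0.06). The UMIs of Cd74 per H2-Aa UMI were 2.67 in TG cluster 1 (2.62 to 2.71) and 3.54 in WT cluster 1 (3.47 to 3.61).

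Among the editing genes, H2-DMa, the alpha chain of H2-DM, was at 466 CPM in TG against 308 CPM in WT mature B cells. Its log2 ratio was 0.60 (0.49 to 0.71), and 0.51 (0.39 to 0.63) in cluster 1. The beta chains did not follow it, with log2 ratios in cluster 1 of -0.10 (-0.26 to 0.06) for H2-DMb1 and 0.02 (-0.04 to 0.09) for H2-DMb2. H2-Ob was at 0.05 (-0.03 to 0.12) there. Ciita was at 323 CPM in TG against 267 CPM in WT, with 0.27 (0.15 to 0.40) in mature B cells and 0.14 (0.01 to 0.27) in cluster 1.

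Immature B cells gave a mixed picture, with 5 members above and 5 below 0 and a median of 0.02, against 48.3% above 0 and a median of -0.02 for all genes. Intervals lay above 0 for 4 members, against 8.12% of all genes, and below 0 for 3, against 9.32%. The chain sum was 9607 CPM in TG against 8360 CPM in WT, a log2 ratio of 0.20 (0.16 to 0.24). Ciita was lower in TG, at 119 against 152 CPM with a log2 ratio of -0.36 (-0.70 to -0.02), and Cd74 was at -0.10 (-0.13 to -0.06). H2-Eb2 was at -0.94 (-1.83 to -0.09) from 20 and 32 UMIs, the only member past 1.5-fold, against 10.7% of all genes lower by that much.

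**Figure D4:**
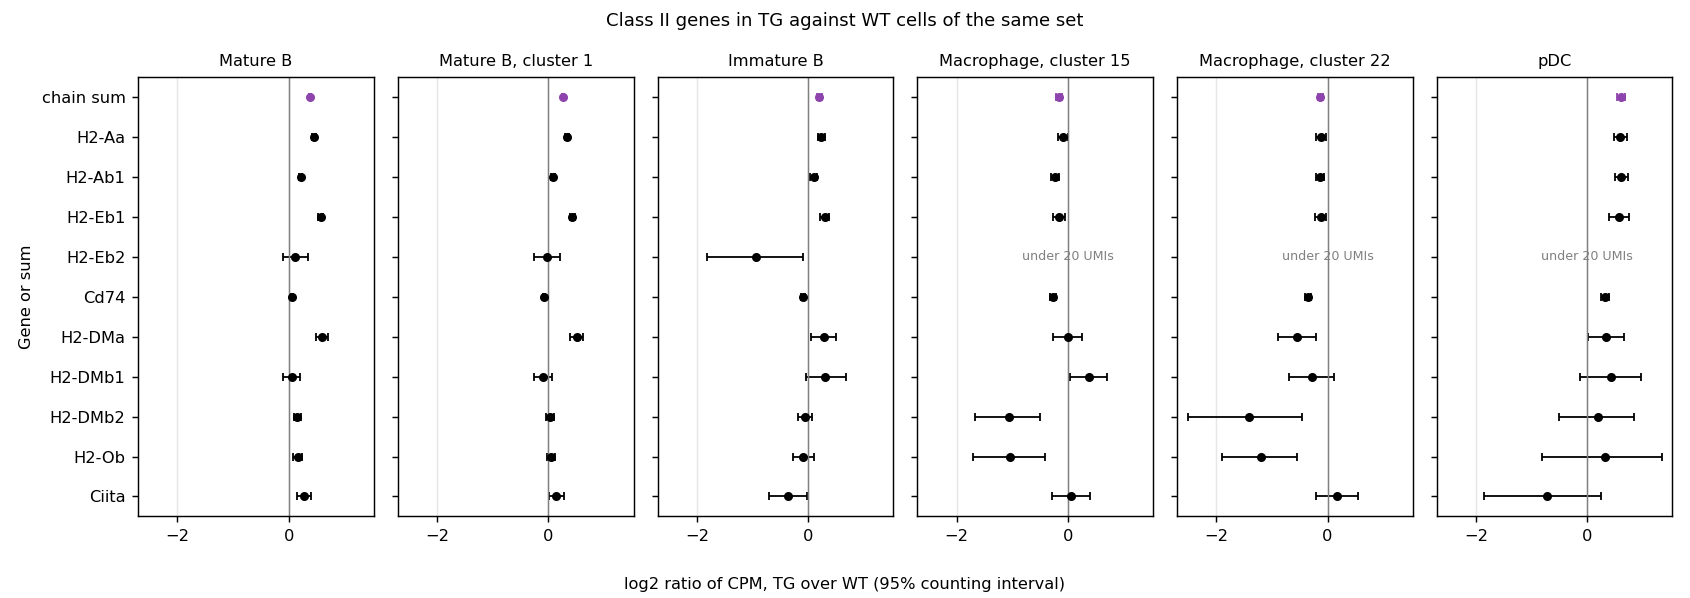
log2 ratio of CPM in TG over WT for the chain sum and the 10 members in 6 cell sets, with bars for the 95% counting interval and 1 library per genotype. The chain sum lies right of 0 in mature B cells (0.39), cluster 1 (0.26), immature B cells (0.20) and pDC (0.60), and left of 0 in clusters 15 (-0.16) and 22 (-0.13), although the cluster 15 cells with 0 dendritic UMIs gave 1.75.

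Cells named macrophage went the other way for the chains in the summed counts, but not in every part of cluster 15. Of the 9 members with at least 20 UMIs, 2 were above and 7 below 0, whereas 56.2% of all genes were above 0, and 6 intervals lay below 0 against 7.77% of all genes. The chain sum was 15811 CPM in TG against 18117 CPM in WT, a log2 ratio of -0.20 (-0.23 to -0.16). This was smaller than the median absolute log2 ratio of all genes there, 0.33, a median that includes genes of few UMIs with wide counting error. Cluster 22 held 20 TG cells beside 89 in cluster 15, against 80 WT cells beside 158. The log2 ratio of the chain sum was -0.16 (-0.21 to -0.11) in cluster 15, -0.13 (-0.18 to -0.08) in cluster 22 and -0.36 in both together. In the cluster 15 cells with at least 3 dendritic UMIs it was -0.14 (-0.19 to -0.08), and in those with 1 or 2 it was -0.47 (-0.62 to -0.33). The direction turned in the 18 TG and 48 WT cells with 0 dendritic UMIs, where the chain sum was 6599 CPM in TG against 1968 CPM in WT, a log2 ratio of 1.75 (1.53 to 1.96), and that of Cd74 was 1.52 (1.33 to 1.71). The median cell of cluster 15 likewise had more chain UMIs per total in TG, as given above, whereas that of cluster 22 was at 25894.5 CPM in TG against 30472 CPM in WT.

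Largest among these members were the differences of H2-Ob and H2-DMb2. H2-Ob was at 81.7 CPM in TG against 184 CPM in WT, a log2 ratio of -1.17 (-1.64 to -0.73), and was the single member at least 2-fold lower, against 5.07% of all genes. H2-DMb2 was at 71.9 and 142 CPM, a log2 ratio of -0.98 (-1.49 to -0.51). Each was at least 2-fold lower within cluster 15, against 4.14% of genes, with log2 ratios of -1.03 for H2-Ob and -1.06 for H2-DMb2. Within cluster 22, where 7.87% of genes were lower by that much, they were at -1.19 and -1.40. The TG counts behind these cluster values were 22 to 34 UMIs, apart from 10 UMIs for H2-DMb2 in cluster 22. In the cluster 15 cells with at least 3 dendritic UMIs, H2-Ob was at -0.91 (-1.68 to -0.19) and H2-DMb2 at -0.76 (-1.43 to -0.14). H2-DMb1 differed from its paralog, with 0.37 (0.05 to 0.70) in cluster 15 and -0.28 (-0.69 to 0.12) in cluster 22.

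B cell genes were low in these clusters but not absent, and in cluster 15 they were also lower in TG. Cd79a was at 61.0 CPM in TG against 128 CPM in WT in cluster 15, and at 35.3 and 33.7 CPM in cluster 22. Ms4a1, which encodes CD20, was at 9.04 and 61.8 CPM in cluster 15 and at 5.89 and 7.08 CPM in cluster 22. Their part in the H2-Ob and H2-DMb2 values of clusters 15 and 22 was not tested. Cd74 was lower in TG in each cluster, at -0.26 (-0.32 to -0.21) in cluster 15 and -0.35 (-0.41 to -0.29) in cluster 22. Ciita was at 0.06 (-0.29 to 0.40) and 0.17 (-0.21 to 0.54).

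Plasmacytoid dendritic cells, 46 in TG and 219 in WT, had 8 of 9 members above 0, against 49.8% of all genes, and 5 intervals above 0, against 6.08%. The chain sum was 7582 CPM in TG against 5003 CPM in WT, a log2 ratio of 0.60 (0.53 to 0.67). H2-Ab1 and H2-Aa were 1.5-fold higher or more, against 12.7% of all genes, with log2 ratios of 0.62 and 0.59. Cd74 was at 0.32 (0.24 to 0.39), and Ciita was at -0.73 (-1.86 to 0.25) from 10 TG UMIs, an interval that includes 0. No chain UMI was found in 9.59% of the WT cells and in 0 of the 46 TG cells. The TG cells were deeper, with medians of 6011.5 UMIs in TG against 4648 in WT. Among T and NK cells, 31.1% in TG and 77.7% in WT had no chain UMI.

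Monocytes lay in the low set, and mixed cells carried much of their class II signal. In 204 TG and 258 WT cells the chain sum was 834 CPM in TG against 321 CPM in WT, a log2 ratio of 1.38 (1.12 to 1.64), with Cd74 at 0.81 (0.60 to 1.01). All 7 members with at least 20 UMIs were above 0, against 43.6% of all genes, 4 intervals lay above 0 against 9% and 2 members were at least 2-fold higher against 5.11%. The 34 TG and 24 WT monocytes with at least 2 UMIs of another lineage held 57.7% and 73.8% of the chain UMIs. Without them the chain sum was 467 CPM in TG against 104 CPM in WT, a log2 ratio of 2.17 (1.70 to 2.67), beside 367 and 118 CPM in T and NK cells filtered alike. Without the 5 TG and 17 WT called doublets it was 558 CPM in TG against 111 CPM in WT, a log2 ratio of 2.32 (1.89 to 2.79), and H2-Ob was at -0.31 in place of 0.39, both with intervals that include 0. The B cell gene Cd79a was also higher, at 196 CPM in TG against 103 CPM in WT with a log2 ratio of 0.92 (0.44 to 1.41), and its part in these values was not tested.

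T and NK cells are not known for class II expression in mice. Their values were taken as the background of each library, an assumption that was not tested. Their chain sum was 415 CPM in TG against 169 CPM in WT, which is 2.80% and 1.496% of the mature B level. A Cd74 UMI was seen in 71.4% of TG and 27.3% of WT T and NK cells, and after thinning each cell to 1000 UMIs in 31.9% and 12.6%. The median depths of these cells were 3406 and 2737.5 UMIs, against 2923 and 2044.5 in mature B cells, where 99.9% of cells in each genotype had a Cd74 UMI. Shares of cells with a class II UMI in T and NK cells fall under the same assumption, and their source was not tested.

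Among the 10 members, 5 were at least 2-fold higher in TG than WT T and NK cells, against 5.96% of all genes. The log2 ratio of the chain sum was 1.29 (1.22 to 1.36) and that of Cd74 was 1.15 (1.08 to 1.21). Genes of other lineages were higher as well, with Cd79a at 1.23 (1.07 to 1.39), Ms4a1 at 0.78 (0.44 to 1.13), Cd79b at 0.42 (0.14 to 0.71) and the neutrophil gene S100a8 at 1.51 (1.37 to 1.65). The difference was not uniform over the clusters of these cells. In cluster 7, with 319 TG and 132 WT CD8αβ T cells, the chain sum was 590 CPM in TG against 534 CPM in WT, a log2 ratio of 0.14 (-0.0047 to 0.29), with Cd79a at 144 and 182 CPM. In cluster 21, with 48 TG and 65 WT CD4 T cells, it was 339 CPM in TG against 323 CPM in WT, a log2 ratio of 0.07 (-0.45 to 0.58), with Cd79a at 82.1 and 97.8 CPM. The median cell of both clusters was higher in TG, at 336 CPM in cluster 7 and 309 CPM in cluster 21 against 0 CPM in WT. Over all T and NK cells, Cd79a was at 1.83% of its mature B level in TG and 0.899% in WT. Ms4a1 was at 1.38% and 0.888%, Cd79b at 1.65% and 1.53%, and the chain sum at 2.80% and 1.496%. The B cell genes thus differed between TG and WT to unlike degrees, and their part in the chain sum was not tested. Without the 30 TG and 40 WT cells of at least 10 chain UMIs, the chain sum was 350 CPM in TG against 101 CPM in WT, and Cd79a was at 63.0 and 16.9 CPM. Of those cells, 19 in TG and 26 in WT had at least 2 UMIs of B lineage genes. After the T and NK level of each library was subtracted, the chain sum of mature B cells had a log2 ratio of 0.37 in place of 0.39.

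**Figure D5:**
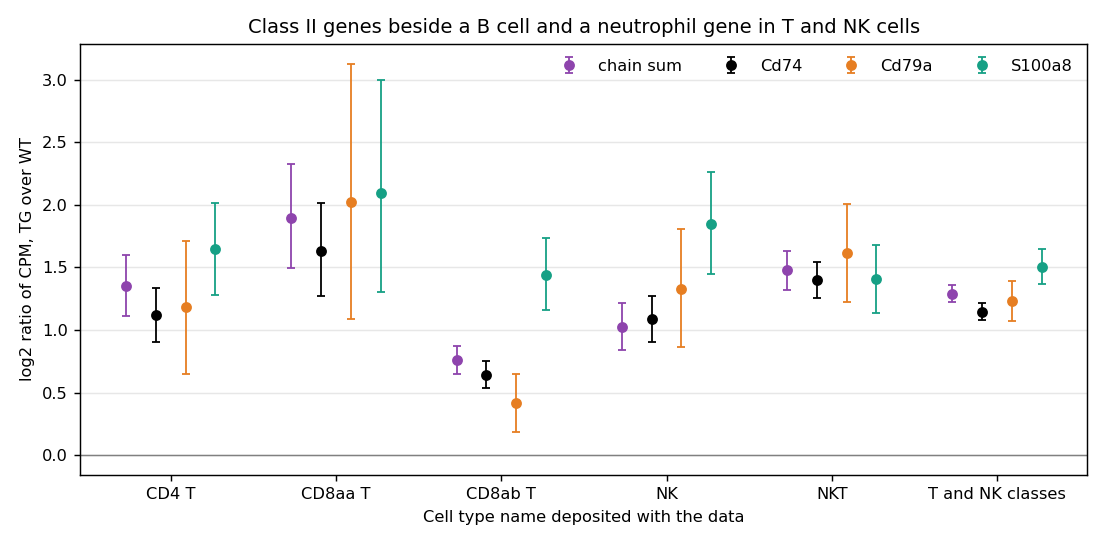
log2 ratio of CPM in TG over WT for the chain sum, Cd74, the B cell gene Cd79a and the neutrophil gene S100a8 in 5 T and NK classes and over all of them, with bars for the 95% counting interval. All points lie above 0, and over all T and NK cells they run from 1.15 for Cd74 to 1.51 for S100a8.

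In T and NK cells, H2-DMa and H2-Ob did not keep the proportions of the chain sum. H2-DMa in T and NK cells was 8.21% of its mature B level in TG (7.37 to 9.13%) and 6.41% in WT (5.60 to 7.31%), above the 2.80% and 1.496% of the chain sum. H2-Ob was at 1.96% of its mature B level in TG and 2.11% in WT. Its TG over WT log2 ratio was 0.05 (-0.23 to 0.33), against 1.29 for the chain sum. Among the classes compared it ran from -0.57 (-0.96 to -0.17) in CD8αβ T cells to 0.96 (0.22 to 1.67) in NKT cells. H2-Ob also differed between the T and NK classes of WT. Without the cells of at least 10 chain UMIs, H2-Ob was at 31.3 CPM in CD4 T cells (23.9 to 40.2) and 28.4 CPM in CD8αβ T cells (22.6 to 35.2), against 5.06 CPM in NK cells (2.18 to 9.96) and 7.15 CPM in NKT cells (5.25 to 9.504). Cd79a in the same cells was at 18.2, 22.9, 7.58 and 16.4 CPM. Among the classes listed, NK cells were lowest for both genes and NKT cells next. The H2-Ob intervals of CD4 T and CD8αβ T cells overlapped. CD8αα T cells of WT, none with 10 chain UMIs, held 1 H2-Ob UMI, at 1.82 CPM (0.05 to 10.1). Their Cd79a level was 18.2 CPM. NKT cells were near CD4 T cells for Cd79a but not for H2-Ob. The part of B cell transcripts in these H2-Ob values was not tested. In TG, H2-Ob was at 24.9 CPM in CD4 T, 17.5 in CD8αβ T, 8.82 in NK and 14.7 in NKT cells.

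The wider antigen presentation list held 37 genes for processing, regulation, turnover and co-stimulation, of which 33 were in the table. In mature B cells 31 had at least 20 UMIs, with 17 higher and 14 lower in TG, a median log2 ratio of 0.03 and 10 intervals above and 7 below 0. Of all genes, 44.1% were higher, 9.73% had an interval above 0 and 15.7% an interval below 0. H2-Oa, the alpha chain of H2-O, was more than 2-fold higher, at 200 CPM in TG against 95.2 CPM in WT with a log2 ratio of 1.07 (0.88 to 1.26). The interferon-γ receptor gene Ifngr2 was at 0.67, and Irf1 at 0.53, while the kinase gene Jak1 was at -0.36 and Irf4 at -0.50. In cells named macrophage 15 of 32 were higher, against 56.2% of all genes, with the protease gene Ctsd at -0.98. In pDC 16 of 28 were higher, against 49.8% of all genes, and in immature B cells 12 of 31, against 48.3%, and Prdm1, a repressor of Ciita in plasma cells, was at -1.94 in the latter. H2-Oa kept its difference in cluster 1, at 206 CPM in TG against 105 CPM in WT, while H2-Ob did not exceed its interval there.

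Genes most like the chain sum across cells were found by Pearson's correlation of log2(CPM + 1) over 25 profiles, a cell type of 1 genotype each, for 10812 genes. They were Ly86 (0.936), Prcp, BC028528, Fgd2, Rnase6, Ctsz, Mef2c, Ctsh, Plekho1 and Kynu (0.909). Chosen by this correlation, each of the 10 was higher in WT mature B cells, cells named macrophage and pDC than in WT CD8αβ T cells. The classical chains and Cd74 were at 0.995 or above, H2-DMb1 at 0.948, Ciita at 0.909 and H2-DMa at 0.900. The classical chains are the parts of the chain sum, so their coefficients were built in. H2-DMb2 at 0.875, H2-Ob at 0.804 and H2-Eb2 at 0.796 were the members least like the chains. The profiles share libraries and depth, and the coefficients are a description.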

How the data were processed

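BD Rhapsody libraries were processed by the authors with the BD WTA Multiplex Rhapsody Analysis Pipeline 1.9 on mm10, and the deposited files hold UMI counts per gene and cell, antibody counts, clusters, cell type names and the mitochondrial percent of each cell. The deposited normalised values were not used. Counts of the 10 genes, a table of 13528 genes in 4647 TG and 7282 WT cells, were summed by cell type or cluster and divided by the summed UMIs. Exact Poisson, conditional binomial and Clopper-Pearson intervals (95%) were computed with scipy 1.17.1. TG over WT ratios of whole cell types and clusters used at least 20 cells per genotype and 20 UMIs per gene. The background was all genes meeting this. Differences between clusters and values for parts of a cluster were also given below 20 cells. These included cluster 28, with 6 TG and 15 WT cells, and the 18 TG cells of cluster 15 with 0 dendritic UMIs. No test was made, as each genotype had 1 library. The ratio script was tested on simulated data. Named genes were the 10 members, the listed processing and regulator genes, and the 10 genes most correlated with the chain sum. Some listed genes, and cells without a deposited name, are not reported here. Members and lists were chosen with earlier results of these data known, and box motifs and their spacing after the sequences were seen. Scrublet in scanpy 1.11.5 called 0.839% of TG and 3.31% of WT cells doublets, which were kept. TMM scaling used edgeR 4.0.16 as an alternative only. Promoters came from RefSeq on GRCm38.p6.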

Additional observations from a re-analysis of the deposited data

Results flagged for a closer look

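The classical chains were higher in TG than WT mature B cells and lower in TG than WT cells named macrophage, in opposite directions under the same contrast. With 1 library per genotype, the difference between the cell types was not tested. The median absolute log2 ratio of all genes was 0.22 in mature B cells and 0.23 in cluster 1. It was 0.33 in cells named macrophage, 0.34 in cluster 15 and 0.40 in cluster 22. The chain sum differed by less than that in these last 3 sets, although the medians include genes of few UMIs with wide counting error. The chain sum had a log2 ratio of 0.39 in mature B cells and -0.20 in cells named macrophage. Cluster 27, which led in macrophage genes, held 0 TG cells and has no ratio of its own. H2-Aa was at 0.45 and -0.13, H2-Ab1 at 0.21 and -0.26, and H2-Eb1 at 0.57 and -0.18. The gap between the cell types was 0.58 for the chain sum and ran from 0.47 for H2-Ab1 to 0.75 for H2-Eb1. In cluster 1 alone the B cell values were 0.26 for the chain sum, 0.33 for H2-Aa, 0.08 for H2-Ab1 and 0.43 for H2-Eb1. Of the cells named macrophage, those of cluster 15 with 0 dendritic UMIs were at 1.75 for the chain sum.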

How the results depend on the processing

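No paired analysis was possible because each genotype had 1 library and no replicates. The chain sum kept its direction in mature B cells (0.39) under the alternatives listed, and in cells named macrophage (-0.20) under those listed except cluster 15 cells with 0 dendritic UMIs and the median cell of cluster 15. In mature B cells it was 0.44 with TMM scaling, 0.41 without ribosomal and mitochondrial genes, 0.33 with cells weighted equally, 0.33 with cells thinned to 1000 UMIs, 0.30 without called doublets, 0.28 without cells carrying genes of another lineage and 0.26 in cluster 1. In alternatives chosen after seeing the data it was 0.26 without cluster 17 and 0.37 with the T and NK level subtracted. Cd74 in mature B cells (0.05) was 0.11 with TMM, 0.081 without ribosomal and mitochondrial genes and 0.031 with the T and NK level subtracted. It turned to -0.0064 with equal weights, -0.0030 thinned, -0.041 without doublets, -0.063 without other-lineage cells, -0.081 in cluster 1 and -0.083 without cluster 17. The chain sum of cells named macrophage was -0.28 with TMM, -0.30 with equal weights, -0.32 thinned, -0.11 without other-lineage cells and -0.16 in cluster 15. Added later, it was -0.13 in cluster 22, -0.36 without cluster 27, and in cluster 15 cells -0.14 with at least 3, -0.47 with 1 or 2 and 1.75 with 0 dendritic UMIs, and 0.35 in the median cell of cluster 15. Cd74 of cells named macrophage (-0.30) was -0.38 with TMM, -0.21 without other-lineage cells, -0.35 in cluster 22 and -0.46 without cluster 27. In cluster 15 cells it was 1.52 with 0 and -0.49 with 1 or 2 dendritic UMIs, and 0.21 in the median cell. The share of chain UMIs in B, myeloid and plasmacytoid cells was 93.5% thinned and 93.6% without other-lineage cells in TG, and 96.2% thinned, 95.5% without doublets and 96.2% without other-lineage cells in WT. The log2 ratio of mature and immature B cells together over CD8αβ T cells was 4.84 in TG, and 4.99 with equal weights, 4.98 thinned, 4.93 without doublets and 5.20 without other-lineage cells. In WT it was 5.27, and 5.47 with equal weights, 5.51 without doublets and 6.34 without other-lineage cells. At 500 CPM in place of 1000 CPM, a threshold added later, 7 cell types of TG and 5 of WT lay above. In monocytes the chain sum (1.38) was 1.71 thinned, 2.32 without doublets and 2.17 without other-lineage cells. The order of the highest TG levels turned, with mature B cells above those named macrophage, at 15173 and 13220 CPM with equal weights and 15205 and 13138 CPM thinned. Without other-lineage cells, those named other, counted as myeloid in this filter, reached 32893 CPM in TG, against 14293 CPM in WT. The cause of these shifts was not tested. TMM moved all log2 ratios by 0.05 in mature B cells and -0.08 in cells named macrophage. Ciita in plasmacytoid dendritic cells had 0 TG UMIs after thinning and gave no value. Members with fewer than 20 UMIs in a cell type or cluster were not compared between TG and WT.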
